A study of Equus caballus with 2 samples.

Results

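Oxidative phosphorylation genes were followed in equine endometrial fibroblasts with and without transforming growth factor beta 1 (TGF-β1). The genes were taken by symbol, as all those starting with MT-, NDUF followed by A, B, C, S or V, UQCR, COX and a digit, or ATP5, together with SDHA to SDHD. Of 21426 genes listed, 83 met this rule. Of these, 13 are encoded by the mitochondrial genome and 70 by the nucleus. The nuclear genes comprise 54 entries for subunits of the complexes, 13 assembly factors and 3 other genes. The symbol NDUFA9 stands for 2 entries.

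Each condition was represented by 1 single cell library of fibroblasts from 4 mares, whose cells were pooled after treatment. The cells had been isolated from abattoir endometrium of mid-luteal mares with no or mild fibrosis and were used at passage 3. The labels and methods read here give no age or breed of the mares. Cells of both conditions were grown on collagen-coated hydrogels at 38 °C, first with 10% and then with 4% serum, and from 48 to 72 h in serum-free medium with 0.1% bovine serum albumin. The control cells received nothing further. The treated cells received 10 ng/ml human recombinant TGF-β1, a growth factor that drives fibroblasts toward the contractile myofibroblast state, for these 24 h. The comparison asks how both genomes that encode the respiratory chain behaved under this stimulus. With 1 library per condition there was no replicate and no test. An effect of TGF-β1 cannot be told apart from any other difference between the 2 libraries or the cultures pooled in them. Intervals are exact binomial intervals at the 95% level and cover counting error only.

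Oxidative phosphorylation passes electrons from NADH through complex I, or from succinate through complex II, to ubiquinone, then through complex III and cytochrome c to complex IV, which reduces oxygen. The proton gradient built on the way is used by complex V, the ATP synthase. The mitochondrial genome encodes a few core subunits of complexes I, III, IV and V and none of complex II, and its genes are transcribed as long precursors that are then cut into single messengers. All other subunits come from nuclear genes and are imported, so the complexes need the output of both genomes.

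Cells with at least 20000 UMIs (unique molecules), at least 3500 genes and under 4% mitochondrial UMIs were kept. This left 3865 of 4384 barcodes in the control library and 4513 of 5124 in the TGF-β1 library, with 210497250 and 219731144 UMIs. Median depth was 50313 UMIs per cell in control and 43142 after TGF-β1. The libraries had 6 barcodes in common, 2 of them among the kept cells. The mitochondrial limit, which acts on members themselves, alone removed 37 control cells and 8 TGF-β1 cells. All 7 fibroblast markers were found, each with a UMI in at least 59.2% of cells thinned to 20000 UMIs, but not all were level. VIM had 4399 CPM in control and 2240 CPM after TGF-β1, THY1 215.5 and 87.5 CPM and PDGFRB 80.1 and 49.0 CPM, and the part of this in the results was not tested. The endothelial markers and the 3 epithelial markers found had a UMI in at most 1.09% of thinned cells, and KRT18 and KRT19 were not matched by symbol. Of the immune markers PTPRC, which marks leukocytes, had none and LYZ at most 0.0259%, while CD68 was seen in 57.6% (control) and 55.6% (TGF-β1) and CD14 in 24.5% and 18.4%, respectively. Of the muscle and pericyte markers, DES had a UMI in at least 98% of cells of either library, MYH11 in 38.3% and 27.5%, and RGS5 in 61.9% and 66.8%. The part of these cells in the results was not tested. Cells with at least 3 of 9 cycling markers made up 3.00% of kept cells in control and 3.10% after TGF-β1.

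Transcripts of the mitochondrial genome took a smaller share of the TGF-β1 library, and those of the nuclear subunits were nearly level. Summed over the 13 mitochondrial genes, the level was 15202 CPM (UMIs of a gene scaled to a library total of 1000000) in control and 12675 CPM after TGF-β1, a difference of -16.6% (95% interval -16.8% to -16.5%) and a log2 ratio of -0.26. The 54 nuclear subunit entries together gave 11112 CPM in control and 10735 CPM after TGF-β1, a difference of -3.39% (95% interval -3.57% to -3.22%) and a log2 ratio of -0.05. The log2 ratio was thus 0.21 lower for the mitochondrial than for the nuclear subunits. This difference was -0.12 without the 6 genes from MT-ATP8 to MT-ND4, and the nuclear ratio was -0.12 in cells of 40000 to 60000 UMIs. Kept cells also held fewer UMIs of any kind after TGF-β1. Per cell, 828 mitochondrial UMIs in control stood against 617 after TGF-β1, and 605 nuclear subunit UMIs against 523. Fewer molecules per cell and shallower sampling of each cell cannot be told apart in these counts.

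The contrast between the genomes differed by complex. In complex I the mitochondrial subunits summed to a log2 ratio of -0.15 and the nuclear ones to -0.10, a gap that had this direction in only 4 of 7 clusters, described below. In complex III the only mitochondrial subunit, MT-CYB, had -0.30, and the 3 nuclear subunits matched by the rule together had -0.03. CYC1, the cytochrome of complex III, lies outside the rule and is not in this sum. It had 206 CPM in control and 221 CPM after TGF-β1, and a log2 ratio of 0.10. In complex IV the values were -0.22 for the mitochondrial and 0.00 for the nuclear subunits. Over all kept cells the widest gap was in complex V, with -0.72 for the 2 mitochondrial subunits and -0.03 for the 11 nuclear ones. Complex II, which is all nuclear, had -0.07. Over the subunits matched by symbol, the nuclear sums of the 5 complexes therefore lay within 0.10 of each other on the log2 scale. Not matched were 10 subunits of complex I, 5 of III, 8 of IV and 5 of V, so these sums do not cover the whole complexes. In cells of 40000 to 60000 UMIs all 5 nuclear sums were further below 0, with -0.17 for complex I, -0.09 for II, -0.08 for III, -0.06 for IV and -0.10 for V.

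Single genes were compared where the mean of both libraries was at least 10 CPM, which 76 of the 83 members and 7658 genes in all met. The 7 below it were MT-ND4L, NDUFA2, the second NDUFA9 entry, COX4I2, NDUFAF7, COX10 and NDUFA4L2. All 12 mitochondrial genes above the minimum were lower in the TGF-β1 library, against 48.6% of all genes. Of these, 6 were lower by more than 1.2-fold, against 18.8% of all genes. Of 51 nuclear subunit entries, 32 were lower, 7 by more than 1.2-fold, and 1 was higher by more than 1.2-fold, against 19.3% of all genes higher by that much. More than 1.5-fold in either direction were 2 mitochondrial genes and 3 nuclear subunits, against 12.7% of all genes, and no member passed 2-fold, against 4.43%. The median log2 ratio was -0.26 over the mitochondrial genes, -0.05 over the nuclear subunits and 0.01 over all genes. The share of genes lower at any size was thus above that of all genes for both genomes. For differences past 1.2-fold it was above that of all genes for the mitochondrial genes and below it, in either direction, for the nuclear subunits.

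**Figure D1:**
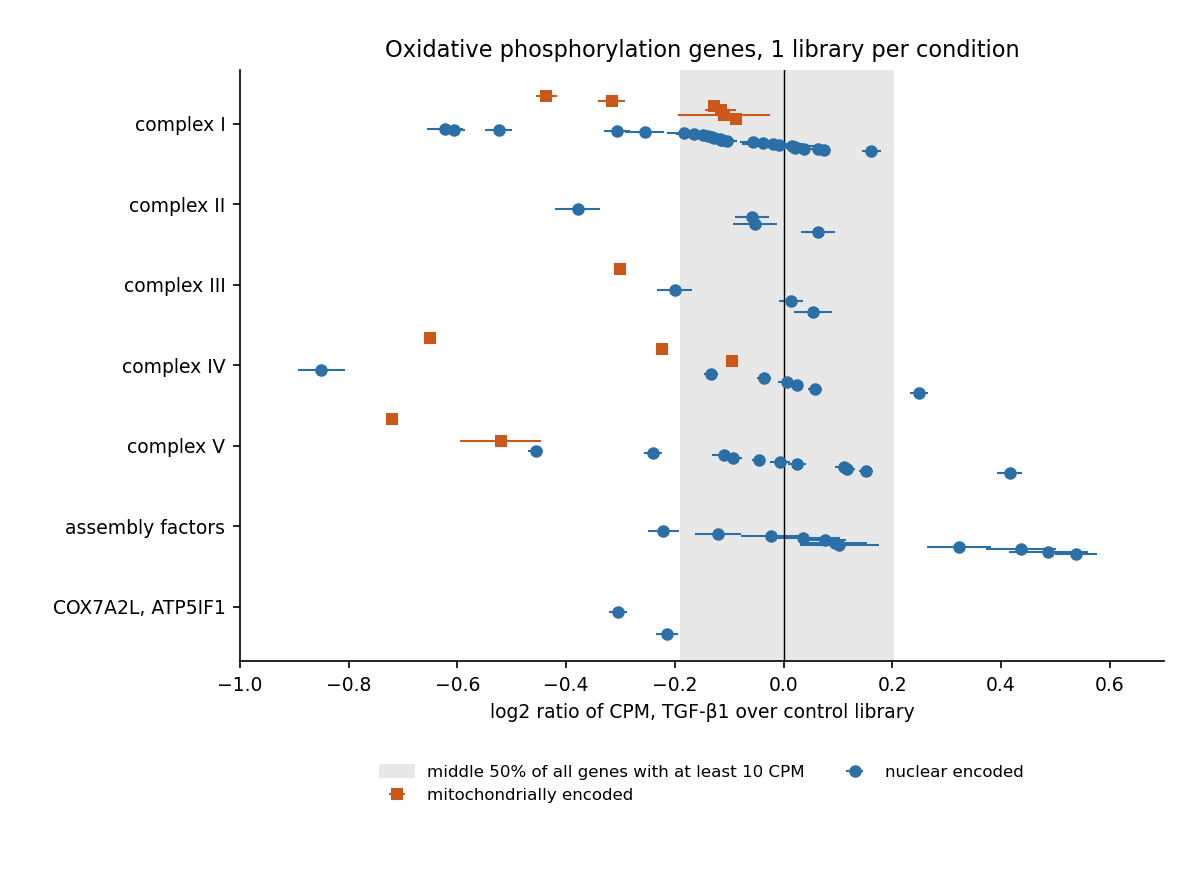
Log2 ratio of CPM in the TGF-β1 over the control library for the 76 members with a mean of at least 10 CPM, by complex, with bars for the 95% counting interval and a grey band for the middle 50% of all genes. All 12 mitochondrial genes lie left of 0, MT-ATP6 at -0.72 being the lowest of them, while the nuclear subunits lie on both sides from COX7A1 at -0.85 to ATP5MC1 at 0.42.

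Over all kept cells, the largest differences among mitochondrial genes were in neighbours on the mitochondrial genome. MT-ATP6, a proton channel subunit of the ATP synthase, had 1330 CPM in control and 807 CPM after TGF-β1, and a log2 ratio of -0.72 (-0.73 to -0.71). Its level also differed between groups of cells of unequal size in the libraries, described with the single cells, and within these its ratio lay between -0.57 and -0.28. MT-CO3, a core subunit of cytochrome c oxidase, had 1638 and 1043 CPM, a log2 ratio of -0.65 (-0.66 to -0.64). Within the same groups of cells its ratio lay between -0.52 and -0.35. MT-ATP8, whose reading frame overlaps that of MT-ATP6 on the same messenger, had 16.2 and 11.3 CPM, a log2 ratio of -0.52 (-0.60 to -0.45). These neighbours were the lowest 3 of the 12 genes. MT-ND3, the next gene along, had 229 and 169 CPM and a log2 ratio of -0.44 (-0.46 to -0.42). MT-ND4 had 136 and 109.3 CPM and a log2 ratio of -0.32 (-0.34 to -0.29). It was the only one of the 6 genes past 1.2-fold that did not stay past it under every alternative, with -0.25 over all deposited barcodes and -0.21 with the shares of the 3 composition groups standardised. MT-ND3 and MT-ND4 encode core subunits of complex I. The sixth gene of this stretch, MT-ND4L, shares its messenger with MT-ND4 and had only 272 UMIs in control and 197 after TGF-β1.

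Over all kept cells, most genes on either side of the stretch differed less. The exception was MT-CYB, whose interval overlapped that of MT-ND4. MT-CO2, the mitochondrial gene with the most UMIs, had 4630 CPM in control and 4335 CPM after TGF-β1, and a log2 ratio of -0.10. MT-CO1, the catalytic core of complex IV, had 2868 and 2457 CPM, a log2 ratio of -0.22. Within the 3 groups of cells described below it had -0.22, -0.16 and -0.34. MT-CYB, cytochrome b, had 2571 and 2088 CPM, a log2 ratio of -0.30 (-0.31 to -0.29), and within the 3 groups of cells it was lower than MT-ND4 in each, with -0.33, -0.25 and -0.25 against -0.25, -0.15 and -0.21. In the first group, but not in the others, MT-CYB was also lower than MT-ATP6, at -0.28, and MT-ND3, at -0.26. Between the complex I genes outside the stretch there was little difference in ratio: MT-ND1 had -0.09, with 894 and 841 CPM, and MT-ND2 had -0.13, with 779 and 713 CPM. MT-ND5 had -0.12, with 98.9 and 91.3 CPM. MT-ND6, the only protein gene on the opposite strand, had 11.0 and 10.2 CPM and a log2 ratio of -0.11 (-0.19 to -0.02), but 0.07 in cells of 40000 to 60000 UMIs. Taken as a block, the 6 genes from MT-ATP8 to MT-ND4 had a log2 ratio of -0.65 and the other 7 had -0.17. This block was chosen after the values were seen. Its share of all mitochondrial UMIs was 22.0% in control and 16.9% after TGF-β1. Where genes overlap on 1 messenger, a count at the 3′ end cannot say which reading frame it stands for.

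**Figure D2:**
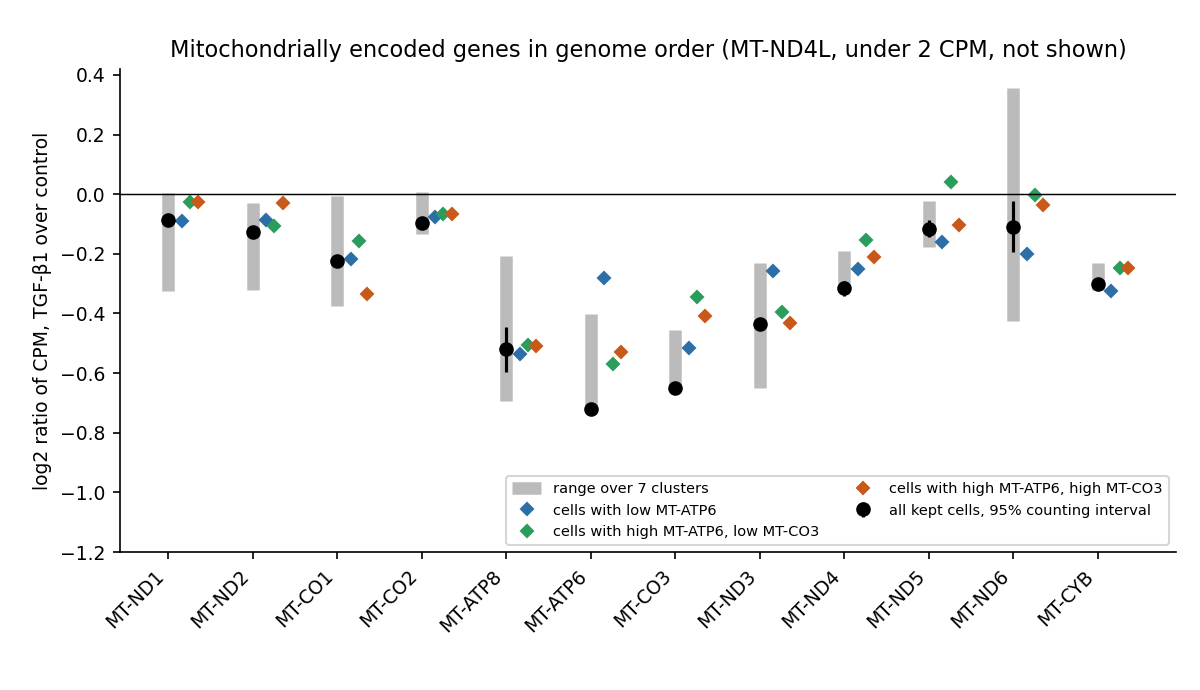
Log2 ratio of CPM, TGF-β1 over control, for 12 mitochondrial genes in their order along the genome, with black points for all kept cells, grey bars for the range over 7 rebuilt clusters and diamonds for the 3 groups of cells described in the text. The run from MT-ATP8 to MT-ND4 lies lowest for all kept cells, and the black points of MT-ATP6 and MT-CO3 lie below all diamonds of the same gene.

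Single cells did not share a common mitochondrial transcript profile. In each library the cells formed 3 separate clouds when the share of MT-ATP6 in a cell's mitochondrial UMIs was set against that of MT-CO3. Limits at 5% MT-ATP6 and 12% MT-CO3, set after seeing the data, divided them. The first group, low in MT-ATP6, had median shares of 2.18% MT-ATP6 and 8.52% MT-CO3 in control. The second, high in MT-ATP6 only, had 13.9% and 6.69%. The third, high in both, had 11.9% and 18.3%. After TGF-β1 the same clouds were present, with median MT-ATP6 shares of 1.87%, 11.0% and 9.68%. These groups are ranges of a per-cell share, not cell types. Within 1 percentage point of the MT-ATP6 limit lay 56 control cells (1.45%) and 197 TGF-β1 cells (4.37%). The limit was fixed while the shares lay lower after TGF-β1, so these counts do not measure how sharply the clouds were parted. Of the cells above that limit, 1.94% in control and 3.87% after TGF-β1 lay within 1 point of the MT-CO3 limit.

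**Figure D3:**
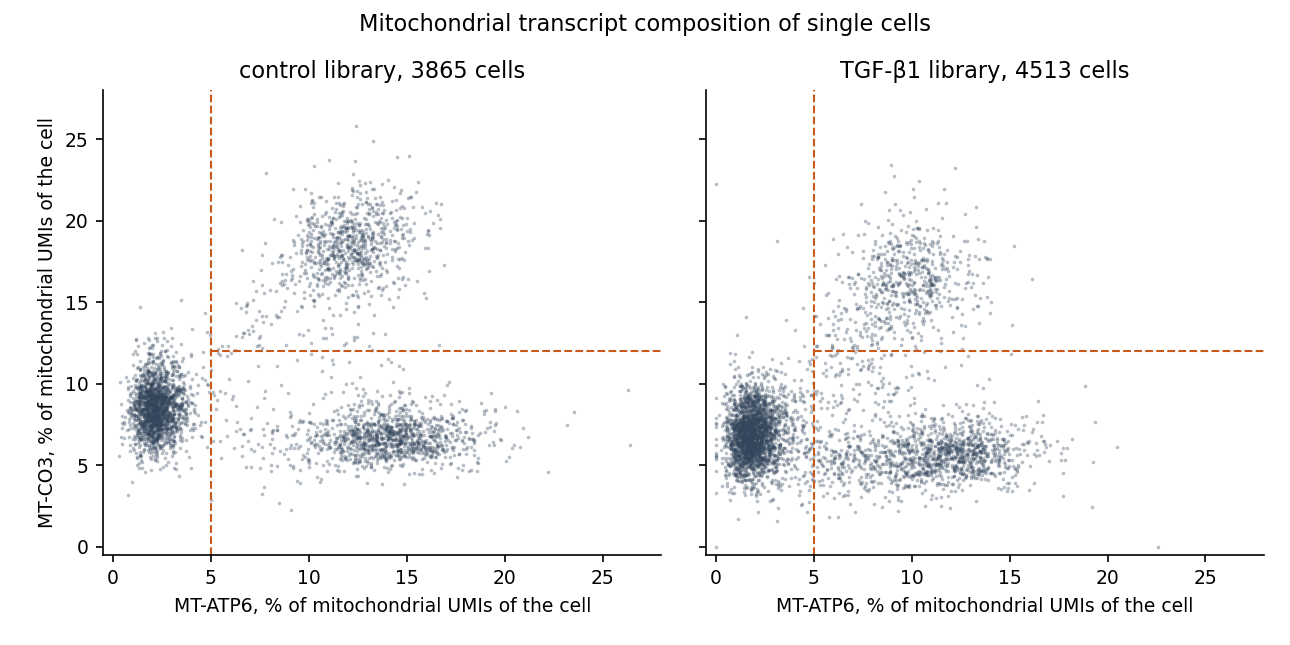
Share of MT-CO3 against share of MT-ATP6 in the mitochondrial UMIs of each kept cell, 3865 control cells at left and 4513 TGF-β1 cells at right, with dashed lines at the limits of 5% and 12%. Both libraries show 3 clouds, and the upper right cloud holds 21.8% of cells in the control panel and 13.96% in the TGF-β1 panel.

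The libraries differed in the size of these groups. The low MT-ATP6 group held 46.6% of the cells kept in control (45.04% to 48.2%, 95% interval) and 55.3% of those kept after TGF-β1 (53.8% to 56.8%). The second group held 31.5% (30.1% to 33.0%) and 30.7% (29.4% to 32.1%). The third held 21.8% (20.5% to 23.2%) and 13.96% (12.96% to 15.01%). So the group with the most MT-CO3 was smaller in the TGF-β1 library and the group with the least MT-ATP6 was larger. The limits were fixed, while the shares lay lower after TGF-β1. The median MT-ATP6 share of the second group was 13.9% in control and 11.0% after TGF-β1, and the median MT-CO3 share of the third was 18.3% and 16.1%. Cells that crossed a limit and a different mix of cells cannot be told apart in these counts. The third group also had the largest mitochondrial share in control, 1.91% of UMIs, against 1.28% in the first and 1.56% in the second. Nuclear subunits made up 1.11%, 1.14% and 1.08% of UMIs in the same order and hardly varied. For none of the 64 nuclear members above the minimum did the highest and lowest of the 3 groups differ by more than 1.5-fold in either library, the most variable being NDUFAF5 at 1.46-fold in control. MT-ATP6, which with MT-CO3 defined the groups, differed by 7.83-fold between them in control. MT-ND4L was not used to define them, and 259 of its 272 control UMIs and 160 of its 197 TGF-β1 UMIs came from the third group. The mares of these pools were told apart in the study from the reads, a step not repeated here, and whether the 3 groups follow the mares was not tested.

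Within each group the mitochondrial sum remained lower after TGF-β1, with a smaller gap to the nuclear sum in the first and second group. The log2 ratio was -0.20 in the first group, -0.20 in the second and -0.25 in the third, and the nuclear sum had -0.06, -0.06 and -0.04. With the shares of the 3 groups held at the mean of both libraries, an alternative chosen after seeing the data, the mitochondrial log2 ratio was -0.21 and the nuclear one -0.05. Under the same weighting MT-ATP6 had -0.52, MT-CO3 -0.43 and MT-ND3 -0.35. MT-CYB, at -0.29, and MT-CO1, at -0.22, were close to their values over all cells. MT-ND4L had 5.17 CPM in both libraries within the third group, a log2 ratio of 0.00 (-0.29 to 0.29). Lower in each of the 3 groups were 11 of the 12 mitochondrial genes, against 40% of all genes. The exception was MT-ND5, with 0.04 in the second group. MT-ATP8, MT-ATP6 and MT-CO3 were the 3 that were lower by more than 1.2-fold in each group, against 13.8% of all genes. MT-ATP6 and MT-CO3 are in both counts and also define the groups, so the counts are not a like comparison with all genes. Of the 3, only MT-ATP8 was not used for the limits. The block from MT-ATP8 to MT-ND4 had -0.43, -0.47 and -0.45, and the other mitochondrial genes had -0.17, -0.12 and -0.16. The limits of the groups were set on MT-ATP6 and MT-CO3. Values within the groups of both genes, and of sums that hold them, are therefore a description that gives no order of the complexes. This includes the mitochondrial sum of complex V, nearly all of which is MT-ATP6. It also includes the block, most of whose UMIs come from both genes, so its values within the groups are not independent of the limits. MT-ATP6 had -0.28, -0.57 and -0.53 in the 3 groups, each closer to 0 than its value over all cells, and in the first group it was less low than MT-ATP8 at -0.54 and MT-CO3 at -0.52. In complex I the gap between the genomes nearly closed, with -0.12 for the mitochondrial and -0.11 for the nuclear sum in the first group, -0.098 and -0.101 in the second, where its direction turned, and -0.09 and -0.08 in the third.

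The mitochondrial sum kept its direction in clusters rebuilt from variable genes other than the members. Of 8 clusters, 7 had at least 50 cells in each library. The mitochondrial sum was lower after TGF-β1 in all 7, with log2 ratios from -0.31 to -0.13. The nuclear sum was lower in 6 of 7, from -0.08 to 0.01, and the mitochondrial ratio lay below the nuclear one in every one of the 7. By complex, the gap had this direction in all 7 clusters for complexes III, IV and V, and in 4 of 7 for complex I. Lower in all 7 clusters were 9 of the 12 mitochondrial genes and 19 of the 51 nuclear subunits, against 28.7% of all genes. Higher in all 7 were 9 nuclear subunits, against 25.2% of all genes. The clusters did not mix the 3 groups evenly. Cluster 3 was made up to 98.3% in control and 89.5% after TGF-β1 of cells high in both genes, and it had the largest mitochondrial sum, 19354 CPM in control and 16045 CPM after TGF-β1. Cluster 1 was made up to 89.2% and 90.7% of cells low in MT-ATP6.

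The mitochondrial sum was also lower at every depth. Cells were divided at 30000, 40000 and 60000 UMIs. The mitochondrial log2 ratio was -0.31 among the shallowest, -0.32 and -0.33 in the 2 middle sets and -0.21 in the deepest. The nuclear ratio was 0.00, -0.09, -0.12 and -0.01 in the same order. The mitochondrial share of UMIs decreased with depth in both libraries, from 1.85% to 1.39% in control and from 1.48% to 1.197% after TGF-β1. In cells thinned to the same 20000 UMIs, the median mitochondrial share was 1.48% in control, with a middle range of 1.14% to 1.90%, and 1.22% after TGF-β1, with 0.920% to 1.60%. The distributions overlapped widely, and 67.7% of TGF-β1 cells lay below the control median. The nuclear share had medians of 1.12% and 1.08%, and 58.1% of TGF-β1 cells lay below the control median. Over cells the mitochondrial and nuclear shares had a Spearman coefficient of 0.00 in control (3865 cells) and -0.01 after TGF-β1 (4513 cells), all cells of a library sharing its preparation.

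**Figure D4:**
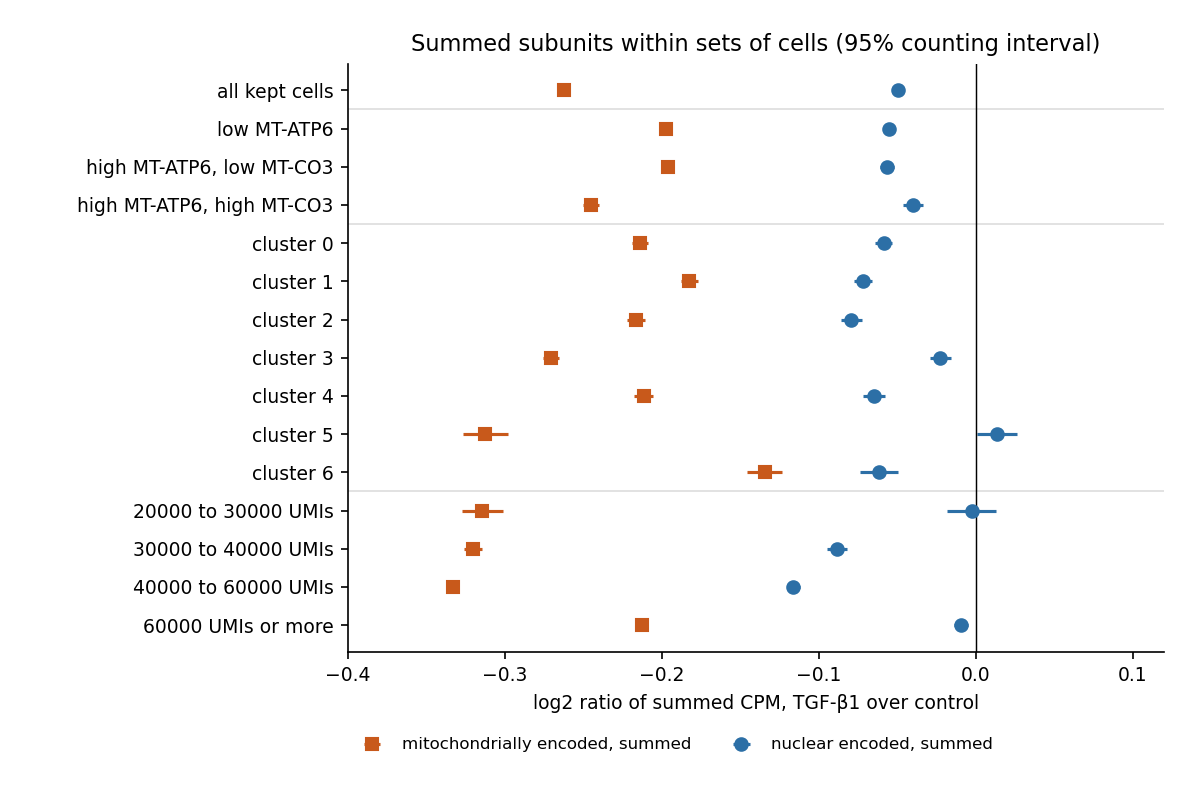
Log2 ratio of the summed CPM, TGF-β1 over control, of the 13 mitochondrial genes (squares) and the 54 nuclear subunit entries (circles) over all kept cells, the 3 groups of mitochondrial composition, the 7 clusters and 4 ranges of depth, with 95% counting intervals. The squares lie left of the circles in every set, from -0.33 to -0.13, and the circles lie between -0.12 and 0.01.

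Among the nuclear subunits of complex I 19 of 26 were lower, against 48.6% of all genes. The 3 lowest were accessory subunits. NDUFA6 had 84.0 CPM in control and 54.6 CPM after TGF-β1, and a log2 ratio of -0.62 (-0.66 to -0.59). NDUFB4 had 229 and 150 CPM, a log2 ratio of -0.61 (-0.63 to -0.59). NDUFC1 had 142 and 98.6 CPM, a log2 ratio of -0.52 (-0.55 to -0.50). Each was lower in all 7 clusters. At the other end NDUFS5 had 222 and 249 CPM, a log2 ratio of 0.16 (0.14 to 0.18). NDUFS8, an iron-sulfur core subunit, had 374 and 393 CPM, a log2 ratio of 0.07, and NDUFV3 had 219 and 229 CPM, a log2 ratio of 0.06. These small differences were positive in all 7 clusters, but in cells of 40000 to 60000 UMIs NDUFS8 had 0.0074 and NDUFV3 -0.0012. The first NDUFA9 entry had 44.7 and 45.1 CPM, and the second had 7 and 4 UMIs.

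Complex II, which joins the citric acid cycle to the chain, was level apart from 1 membrane anchor. SDHD had 48.5 CPM in control and 37.3 CPM after TGF-β1, and a log2 ratio of -0.38 (-0.42 to -0.34), and was lower in all 7 clusters. The other anchor, SDHC, had 75.4 and 78.7 CPM, a log2 ratio of 0.06 (0.03 to 0.09). The flavoprotein SDHA had 47.1 and 45.4 CPM, a log2 ratio of -0.05, and the iron-sulfur subunit SDHB had 80.5 and 77.3 CPM, a log2 ratio of -0.06.

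In complex III 3 nuclear subunits were matched by symbol. UQCRB had 76.8 CPM in control and 66.9 CPM after TGF-β1, and a log2 ratio of -0.20 (-0.23 to -0.17). The Rieske iron-sulfur protein UQCRFS1 had 163 and 165 CPM, a log2 ratio of 0.01 (-0.01 to 0.03). The core protein UQCRC2 had 59.2 and 61.5 CPM, a log2 ratio of 0.05 (0.02 to 0.09). None passed 1.2-fold.

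The level sum of complex IV held opposite differences of isoforms. COX7A1, the isoform best known from heart and skeletal muscle, had 55.2 CPM in control and 30.6 CPM after TGF-β1, 1.80-fold lower, with a log2 ratio of -0.85 (-0.89 to -0.81). It was the lowest of all members above the minimum and was lower in all 7 clusters, from -0.99 to -0.56. Its widely expressed counterpart COX7A2 had 258 and 307 CPM, a log2 ratio of 0.25 (0.23 to 0.27), and was higher in all 7. COX7A2L, which helps to join complexes III and IV into supercomplexes, had 187 and 161 CPM, a log2 ratio of -0.21 (-0.24 to -0.19). COX4I1 had 717 and 729 CPM, a log2 ratio of 0.02. Its oxygen-responsive counterpart COX4I2 was nearly absent, with 101 and 77 UMIs. COX5B had 510 and 465 CPM, a log2 ratio of -0.13. COX6A1 had 449 and 438 CPM and NDUFA4 447 and 465 CPM, log2 ratios of -0.04 and 0.06. NDUFA4L2, a hypoxia-responsive relative of NDUFA4, had 659 and 782 UMIs, or 3.13 and 3.56 CPM. COX6A2, COX6B1, COX6B2 and COX8A were not matched by symbol, and COX8C was not analysed here.

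Complex V showed the same kind of opposite difference, between genes for the same mature protein. ATP5MC1, ATP5MC2 and ATP5MC3 all encode the c subunit of the proton-driven ring and differ in the targeting peptide that is cut off on import. ATP5MC1 had 127 CPM in control and 170 CPM after TGF-β1, and a log2 ratio of 0.42 (0.39 to 0.44), the only nuclear subunit higher by more than 1.2-fold. ATP5MC2 had 468 and 341 CPM, a log2 ratio of -0.46 (-0.47 to -0.44). ATP5MC3 had 440 and 489 CPM, a log2 ratio of 0.15 (0.14 to 0.16). The first and the third were higher and the second lower in all 7 clusters. In the catalytic head, ATP5F1A had 301 and 255 CPM, a log2 ratio of -0.24 (-0.26 to -0.22), while its partner ATP5F1B had 309 and 335 CPM, a log2 ratio of 0.12 (0.10 to 0.13). ATP5MF had 151 and 140 CPM, a log2 ratio of -0.11. ATP5IF1, which inhibits ATP hydrolysis by the enzyme, had 315 and 255 CPM, a log2 ratio of -0.30 (-0.32 to -0.29), and was lower in all 7 clusters.

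**Figure D5:**
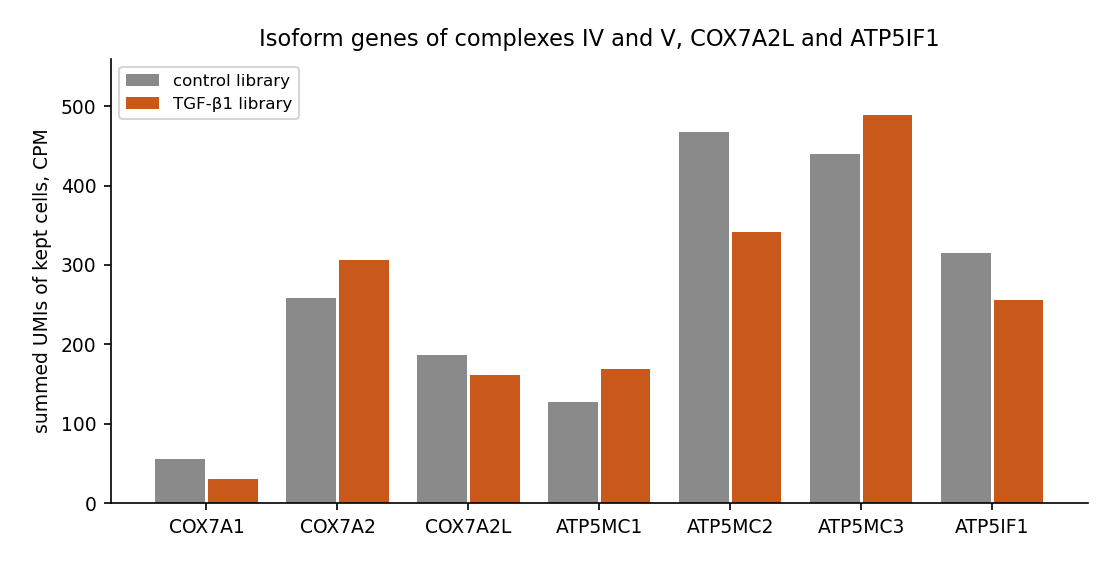
Summed UMIs of the kept cells in CPM in the control (grey) and TGF-β1 (orange) library for isoform genes of complexes IV and V, COX7A2L and ATP5IF1, 1 library per bar. COX7A1 (55.2 and 30.6 CPM) and ATP5MC2 (468 and 341 CPM) are lower after TGF-β1, while COX7A2 (258 and 307 CPM), ATP5MC1 (127 and 170 CPM) and ATP5MC3 (440 and 489 CPM) are higher.

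The nuclear subunits with the largest isoform differences kept their direction within the groups of mitochondrial composition, whereas some with small differences did not. Of the 51 nuclear subunits, 26 were lower in each of the 3 groups, against 40% of all genes, and 15 were higher in each, against 41.7%. The others, among them SDHA and COX4I1, changed sign between groups. COX7A1 had 58.4 CPM in control and 29.2 CPM after TGF-β1 in the first group, 58.3 and 33.2 CPM in the second and 45.2 and 30.1 CPM in the third. The log2 ratios of ATP5MC2 in the 3 groups were -0.50, -0.39 and -0.43, and those of ATP5MC1 were 0.44, 0.34 and 0.38. By more than 1.2-fold, 6 nuclear subunits were lower in each of the 3 groups, against 13.8% of all genes, and 1 was higher in each, against 14.1%. Both shares of the subunits were below those of all genes.

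Assembly factors help to build the complexes without being part of them. Those matched by the rule leaned toward higher levels, while a larger list outside it, described with the other lists, did not. Summed over the 13 matched by the rule, the level was 370 CPM in control and 391 CPM after TGF-β1, a difference of 5.76% (95% interval 4.74% to 6.79%). Most of this difference lay in NDUFAF2. Of the 11 above the minimum, 3 were lower, against 48.6% of all genes. By more than 1.2-fold, 4 were higher, against 19.3% of all genes, and none was lower, against 18.8%. NDUFAF2 had 42.4 and 61.6 CPM, a log2 ratio of 0.54 (0.50 to 0.58), the highest of all members above the minimum, and was higher in all 7 clusters. NDUFAF4 had 12.3 and 17.3 CPM, a log2 ratio of 0.49 (0.42 to 0.56). The others past 1.2-fold were NDUFAF5, with 19.6 and 24.5 CPM, and COX18, with 15.7 and 21.3 CPM. The lowest were NDUFAF3, with 98.8 and 84.8 CPM and a log2 ratio of -0.22 (-0.25 to -0.19), and COX20, with 42.2 and 38.8 CPM and a log2 ratio of -0.12.

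In none of the lists of genes that work with the chain did all genes above the minimum share a direction, as the mitochondrial genes did. Among 15 factors of mitochondrial DNA and RNA above the minimum none passed 1.2-fold in either direction, against 18.8% of all genes lower and 19.3% higher, and the median log2 ratio was 0.00. The lowest were LONP1, a matrix protease, at -0.20 and TFB1M at -0.13, and the highest were MTERF2 at 0.18 and SLIRP, which protects mitochondrial messengers, at 0.09. Of 31 such factors searched 27 were found, and POLRMT, TEFM, POLG and TWNK were among those under the minimum. The factors under the minimum ranged from FASTKD2 at -0.28 to FASTKD1 at 0.18. Among 64 proteins of the mitochondrial ribosome 8 were lower and 1 was higher by more than 1.2-fold, with a median of -0.04. MRPL41 had -0.61, MRPL45 -0.57, MRPL2 0.40 and MRPL37 0.25. Both shares were below those of all genes.

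Electron carriers outside the rule parted. Cytochrome c, CYCS, had 282 CPM in control and 389 CPM after TGF-β1, and a log2 ratio of 0.46 (0.45 to 0.48), and was higher in all 7 clusters. The electron transfer flavoprotein subunits ETFB and ETFA had -0.30 and -0.26, and CYC1, the cytochrome of complex III, had 0.10. The list held 5 genes above the minimum, 1 lower and 1 higher by more than 1.2-fold (18.8% and 19.3% of all genes), with a median of -0.20, while the summed level, in which CYCS weighs most, had 0.09. Of 12 citric acid cycle genes, 3 were lower by more than 1.2-fold, against 18.8% of all genes, among them CS, citrate synthase, at -0.29 and IDH3G at -0.28. MDH2, malate dehydrogenase, at 0.29 was the only one higher by that much, against 19.3% of all genes, and OGDH had 0.24. Of the 12 genes 8 were lower at any size, against 48.6% of all genes. In all 7 clusters 7 were lower, against 28.7% of all genes, and 3 were higher, against 25.2%. The median was -0.20 and the summed level, led by MDH2, had 0.04.

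Of 27 assembly factors outside the rule, 19 were lower, against 48.6% of all genes, with a median of -0.05. By more than 1.2-fold, 5 were lower and 1 was higher. The share lower past 1.2-fold was close to the 18.8% of all genes, and the share higher was below their 19.3%. UQCC3 had -0.52 and NUBPL -0.47, and ATPAF1 had 0.39 and SCO1 0.24. Of 16 import genes, 2 were lower and 2 were higher by that much, both below the shares of all genes, with a median of -0.02. TOMM22 had -0.36 and TIMM17B -0.34, and TIMM10B had 0.32 and TIMM21 0.27. Of 15 nuclear regulators, 5 were lower by more than 1.2-fold, against 18.8% of all genes, and 1 was higher, against 19.3%, with a median of -0.11. SIRT3, a mitochondrial deacetylase, had 26.1 CPM in control and 13.2 CPM after TGF-β1, and a log2 ratio of -0.98 (-1.05 to -0.92). MYC had 30.4 and 17.0 CPM, a log2 ratio of -0.83 (-0.89 to -0.78). PPARD had 9.99 and 17.5 CPM, a log2 ratio of 0.81 (0.73 to 0.88), and PPRC1 had 0.25.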

How the data were processed

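Single cells of pooled equine endometrial fibroblasts were measured with the 10x Genomics 3′ v3.1 kit. The authors deposited UMI counts per gene and barcode, made with Cell Ranger against EquCab3.0 and Ensembl release 109. The submitters' processing notes name Cell Ranger 7.1.0 and the file header names 8.0.1. Mares and doublets were called by the study from reads and neither step was repeated, so doublets were kept. Free RNA was not measured. Cells given MFGE8 were left aside.

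For each library, the counts of all kept cells were added up in Python 3.11.15 (numpy 2.4.6, scipy 1.17.1, pandas 2.3.3, matplotlib 3.10.9) and scaled to CPM. Ratios carry no pseudocount, and none is given for genes with 3 or fewer UMIs in both libraries. Named are all mitochondrial and SDH genes, the 3 highest and 3 lowest subunits of complexes I, III, IV and V, isoform genes, and the 2 highest and 2 lowest of each other list, at 10 CPM or more. NDUFAF5, COX18, the block from MT-ATP8 to MT-ND4 and the genes of other lists named under the minimum were named after their values were seen. The members and lists were chosen with earlier results of these data known. Clusters were rebuilt in Seurat 5.3.0 (R 4.3.3) with integration by canonical correlation, 2000 variable genes without the members, 30 dimensions and a resolution of 0.5, and are not the study's clusters. The ratio script was tested on simulated data.

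Of 101 nuclear genes that meet the rule in the RefSeq table of assembly TB-T2T, 32 were not matched by symbol and are not analysed here, 28 of them subunits. In the deposited list 5196 entries carry an identifier as their name. That table was used only for symbols and for the order of the mitochondrial genes. Levels are 3′ UMI counts without a length scale and are not compared between genes. No sequences were printed because the tables used here hold none, and a comparison of promoter motifs was not run.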

Additional observations from a re-analysis of the deposited data

How the results depend on the processing

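Every alternative left the mitochondrial sum lower after TGF-β1, the nuclear sum lower, and the mitochondrial ratio below the nuclear one. The mitochondrial log2 ratio of -0.26 was -0.21 over all deposited barcodes, -0.27 with a mitochondrial limit of 6%, -0.28 with no limit, -0.26 with a UMI minimum of 10000, -0.27 without cells above the 98th percentile of UMIs, -0.27 after thinning to 20000 UMIs, -0.33 in cells of 40000 to 60000 UMIs, -0.27 as a mean of per-cell CPM, -0.27 without cells with cycling markers, -0.23 with standardised cluster shares and -0.27 with a median-of-ratios size factor. Chosen after seeing the data, it was -0.21 with standardised shares of the 3 composition groups and -0.17 without the 6 genes from MT-ATP8 to MT-ND4. The nuclear log2 ratio of -0.0498 was -0.0527 over all barcodes, -0.0580 without the deepest cells, -0.0525 after thinning, -0.0561 with standardised clusters, -0.0530 with standardised composition groups, -0.0580 with the size factor, -0.0535 with mitochondrial genes left out of the total, -0.0541 over every nuclear gene of the rule and -0.12 in cells of 40000 to 60000 UMIs. The difference between the genomes, -0.21, was -0.16 over all barcodes, -0.22 with the 6% limit, after thinning, in cells of 40000 to 60000 UMIs and per cell, -0.23 with no limit, -0.17 with standardised clusters, -0.15 with standardised composition groups, -0.21 with every nuclear gene and -0.12 without the 6 genes. The spread between complexes stayed within its counting interval under all of the alternatives run for it. The count of 8 nuclear subunits past 1.2-fold was 13 with every nuclear gene of the rule, 3 at 1.5-fold, 0 at 2-fold and, chosen after seeing the data, 18 at 1.1-fold. It was 10 in cells of 40000 to 60000 UMIs, 11 with no minimum, 9 with a minimum of 1 CPM and 9 with the size factor, in each case with more lower genes and 1 higher. Of 21 single genes and complex sums past 1.2-fold, 20 stayed past it throughout. The exception was MT-ND4, which had -0.25 over all barcodes, -0.25 with standardised clusters and -0.21 with standardised composition groups, and MT-ND4L, under the minimum, had 0.14 with the last. Of 92 single values, 15 changed sign under at least 1 alternative, 12 of them in cells of 40000 to 60000 UMIs, where 6 further values passed 1.2-fold. There NDUFV3 had -0.0012, COX4I1 -0.06, UQCRFS1 -0.06, the first NDUFA9 entry -0.10 and MT-ND6 0.07. The causes of these shifts were not tested.

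No paired analysis was possible because the deposited counts used here do not tell which mare a cell came from, and the separation by reads was not repeated. The barcodes removed by the filters had a median mitochondrial share of 3.23% in control and 10.2% in the TGF-β1 library. Intervals do not hold the spread between mares or cultures, and depth limits MT-ND4L, COX4I2 and the second NDUFA9 entry.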
